A study of Mus musculus with 21 samples.

Results

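The control regions of H19, Meg3 (also called Gtl2) and Rasgrf1 are the stretches of mouse DNA at which sperm is known to carry an imprint, a methylation mark that differs between the alleles inherited from father and mother. They were taken as all listed CpGs in 3 windows of the mm9 genome build, chr7:149766000-149768500 for H19, chr12:110764500-110769500 for Meg3 and chr9:89773000-89784000 for Rasgrf1. The windows were given as coordinates and not chosen from the measured methylation. They held 60, 120 and 123 CpGs, 303 of the 15544856 CpGs in the table. The series has 21 samples of sperm and round spermatids, of which 1 is used here: bisulfite-treated DNA recovered with the nucleosomes of C57BL/6 sperm, untreated and with no altered gene named in the labels. A swim-up step enriched motile sperm, and micrococcal nuclease, an enzyme that cuts the DNA between nucleosomes, released them singly. The labels give neither the number of animals nor their age for this sample. The table holds no expression of cell type markers, and the purity of the cells was not checked here. With 1 library there is no replicate, no test and no p-value; intervals are 95% Wilson intervals for counting error only. Reads at neighbouring CpGs are not independent, so these intervals are too narrow.

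At most imprinted loci the mark is placed in the egg, and only a few control regions are methylated in the male germ line. The mark is written in male germ cells before birth and is kept through fertilization, when most of the paternal genome loses methylation. At the H19 control region the unmethylated maternal allele binds the insulator protein CTCF, which keeps the growth factor gene Igf2 from its enhancers, whereas the methylated paternal allele silences the noncoding RNA H19. The intergenic region upstream of Meg3 governs the Dlk1 and Meg3 domain, in which the noncoding RNA Meg3 comes from the maternal allele. The region upstream of Rasgrf1, a Ras exchange factor gene, contains a repeat array and is methylated on the expressed paternal allele. In sperm all copies are paternal, so the label leads to high methylation at all 3 loci.

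To relate the values to sequence, RefSeq promoter sequences (build GRCm38.p6, 250 bases before to 50 after a transcript start) were placed on mm9 by matching the spacing of their CpGs to the listed positions. Meg3 and Rasgrf1 had entries that could be placed. No sequence is shown for H19. Of the starts of Gm34081, a noncoding RNA gene that precedes Meg3 on the reverse strand, 3 were placed in the Meg3 window or its flanks. The sequences below are the start that overlaps the Meg3 control region (reverse strand, chr12:110764430-110764729), the Gm34081 start nearest to Meg3 (reverse strand, chr12:110778310-110778609) and the Meg3 start itself (forward strand, chr12:110778956-110779255). They are shown because they lie in a highly and in partly methylated stretches of this locus. All run 5′ to 3′, and capitals mark the CpGs, the sites at which methylation was read.
Gm34081 start overlapping the control region: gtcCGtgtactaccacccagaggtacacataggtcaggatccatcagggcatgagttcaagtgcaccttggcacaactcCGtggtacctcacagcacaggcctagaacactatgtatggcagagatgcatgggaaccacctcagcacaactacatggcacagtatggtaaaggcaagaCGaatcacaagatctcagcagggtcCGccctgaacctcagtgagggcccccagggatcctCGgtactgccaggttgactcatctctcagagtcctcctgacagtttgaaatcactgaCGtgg
Gm34081 start near Meg3: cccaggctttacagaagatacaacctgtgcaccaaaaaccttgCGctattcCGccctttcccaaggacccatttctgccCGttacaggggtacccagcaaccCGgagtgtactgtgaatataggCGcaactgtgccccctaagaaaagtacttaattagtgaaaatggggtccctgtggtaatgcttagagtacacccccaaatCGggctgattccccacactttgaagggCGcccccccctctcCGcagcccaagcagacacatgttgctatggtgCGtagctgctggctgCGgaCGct
Meg3 start: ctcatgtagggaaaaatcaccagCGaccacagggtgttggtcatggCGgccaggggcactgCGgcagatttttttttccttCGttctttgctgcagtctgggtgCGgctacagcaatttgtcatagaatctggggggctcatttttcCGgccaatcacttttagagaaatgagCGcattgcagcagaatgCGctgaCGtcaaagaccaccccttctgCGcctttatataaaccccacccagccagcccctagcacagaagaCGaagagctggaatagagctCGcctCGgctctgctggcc
The first sequence matched at 6 of its 6 CpGs, and the next best place on the chromosome matched at 3. The second matched at 11 of 11 CpGs (next best 4) and the third at 12 of 13 (next best 5). A place was accepted only where it left no listed CpG unmatched. The next best place could have at most 50% as many matches.

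The 3 regions differed in how far they were methylated. The Meg3 region was the most methylated, with 457 methylated of 514 CpG reads, a pooled level of 88.9% (85.9 to 91.3). The H19 region had 130 methylated of 173 CpG reads, a level of 75.1% (68.2 to 81.0). The Rasgrf1 region had 194 of 325, a level of 59.7% (54.3 to 64.9). The 3 intervals did not overlap, but they cover counting error only. Levels of 500 bp bins with at least 20 reads did overlap between regions. They ran from 46.4% to 96.0% at H19 (4 bins), 66.7% to 100% at Meg3 (7 bins) and 16.7% to 78.6% at Rasgrf1 (4 bins). Taken as whole windows, H19 and Rasgrf1 were only partly methylated in this library. They had 43 and 131 unmethylated CpG reads, against 57 at Meg3. The cause was not tested. For comparison, autosomal windows of 5 kb with at least 100 CpG reads had a median level of 87.8%, with quartiles of 77.7% and 92.5%. With the same minimum, windows of 2.5 kb, the length of the H19 region, had a median of 84.0% (quartiles 48.1% and 92.7%). Windows of 11 kb, the length of the Rasgrf1 region, had 87.7% (quartiles 80.9% and 91.6%). A window of 2.5 kb needs more reads per kb to pass this minimum, so the 3 sets are unlike. They held 99794 windows of 2.5 kb, 180842 of 5 kb and 156667 of 11 kb.

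The flanks placed the regions differently in their surroundings. At H19 the 10 kb before the region had a level of 77.8% (73.9 to 81.3) and the 10 kb after it 90.9% (85.5 to 94.4). The difference of the region from both flanks pooled was -6.04 percentage points (Newcombe interval -13.5 to 0.629), an interval that includes 0. From the flank before alone it was -2.68 points (-10.4 to 4.37) and from the flank after alone -15.8 (-23.5 to -7.83). With 20 kb on each side it was -9.35 points (-16.6 to -3.06), an interval below 0. At Meg3 the flank before had 88.6% (83.4 to 92.3), 0.353 points from the region (-4.41 to 6.04), and the flank after 69.1% (64.2 to 73.6). The Meg3 region was 12.9 points above its pooled flanks (8.46 to 17.4), and 4.05 points above them when they were cut to 5 kb on each side (-1.08 to 9.93). At Rasgrf1 the flank before had 67.3% (61.3 to 72.9) and the flank after 89.1% (82.7 to 93.3). The Rasgrf1 region lay below the pooled flanks, with a difference of -15.4 points (-22.1 to -8.47). From the flank before alone it was -7.65 points (-15.4 to 0.334), an interval that includes 0, and from the flank after alone -29.4 (-36.2 to -21.2). With 20 kb on each side this turned to 1.02 points above (-5.14 to 7.01). The stretch from 10 to 20 kb after the region had a level of 29.1% (129 of 443 reads).

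**Figure D1:**
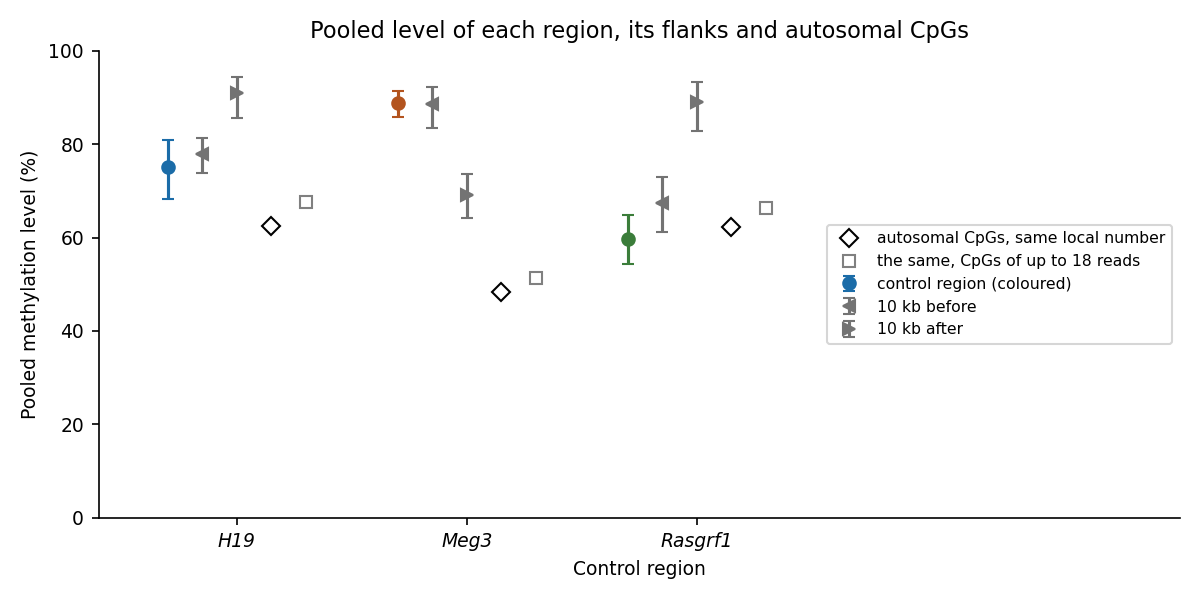
Pooled methylation level (%) of each control region, of the 10 kb before and after it, and of autosomal CpGs with the same local CpG number; bars are 95% Wilson intervals. Meg3, at 88.9%, stands above the level of autosomal CpGs of its local number by the widest margin, and Rasgrf1, at 59.7%, lies below the flank after it; its interval overlaps that of the flank before.

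The level of autosomal CpGs falls with CpG density in this library, so each region was set beside autosomal CpGs with the same local CpG number, which counts the CpG itself and the listed CpGs up to 100 bp to its left and right. The median local number was 6 at H19, 9 at Meg3 and 4 at Rasgrf1. Autosomal CpGs weighted to the local numbers of Meg3 had a level of 48.3%, so the Meg3 region stood 40.6 points higher (37.6 to 43.0). The H19 region stood 12.6 points above its counterpart of 62.6% (5.62 to 18.4). The Rasgrf1 region differed from its counterpart of 62.2% by -2.54 points (-7.96 to 2.65), an interval that includes 0. Autosomal CpGs with more than 18 reads carry many of the reads in these averages. Without them the differences were 37.5 points at Meg3, 7.44 at H19 (0.498 to 13.3) and -6.54 at Rasgrf1 (-11.96 to -1.35). CpGs without reads are not listed, so thinly covered DNA is given a lower local number than its sequence has.

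The distance from the autosomes was widest where CpGs are dense. At Meg3 the 28 CpGs with a local number of 15 or more had 65 of 81 reads methylated, 80.2% (70.3 to 87.5), where such CpGs on the autosomes had 3.68%. The 20 CpGs of Meg3 with a local number of 10 to 14 had 94.8% (89.1 to 97.6), against 29.1% on the autosomes. At Rasgrf1 the 15 CpGs in the densest class had 36 of 48 reads methylated, 75% (61.2 to 85.1). The 11 Rasgrf1 CpGs with a local number of 10 to 14 had 38.5% (22.4 to 57.5), but this pools unlike neighbours. Those from 89774498 to 89774538 had no methylated read, and those from 89774729 to 89774762 had methylated reads only. In sparse surroundings Rasgrf1 lay under the autosomes instead, with 59.4% at a local number of 1 or 2 (47.1 to 70.5) against 86.3%, and 59.5% at 3 to 5 (50.4 to 68.0) against 76.3%. H19 had 70% at 1 or 2 (39.7 to 89.2, 3 CpGs) and 70% at 3 to 5 (56.2 to 80.9, 17 CpGs), and both intervals include the autosomal level. Autosomal CpGs of up to 18 reads had 84.5% at 3 to 5, above the H19 interval. It had 9 CpGs with a local number of 10 to 14, at 65.6% (48.3 to 79.6), and 31 at 6 to 9, at 82.7% (73.1 to 89.4) against 64.1% on the autosomes.

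**Figure D2:**
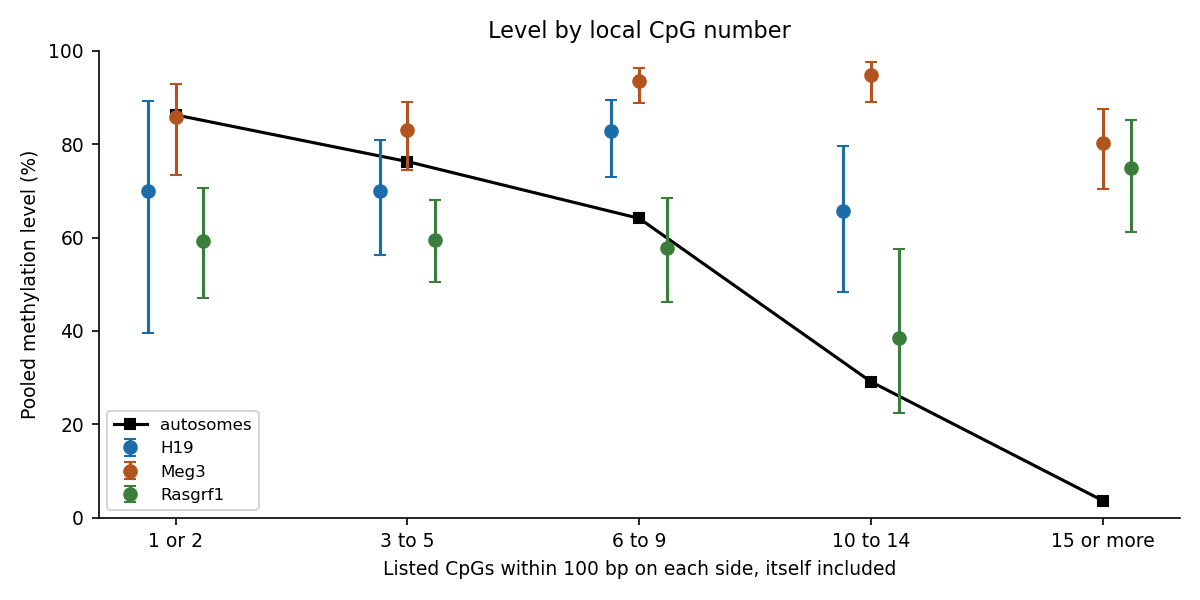
Pooled methylation level (%) by local CpG number, for all autosomal CpGs outside the regions (line) and for each control region (points, bars are 95% Wilson intervals). The autosomal level falls to 3.68% in the densest class, where Meg3 stays at 80.2% and Rasgrf1 at 75%; H19 has no CpG in that class.

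Levels were not even along the windows. The Meg3 region was almost fully methylated in its first part and less so in the rest. In its 5 successive parts of 1 kb the level was 98.4% (94.2 to 99.5), 95.8% (92.2 to 97.8), 74.2% (62.6 to 83.3), 67.6% (51.5 to 80.4) and 77.3% (66.7 to 85.3). The first 2.5 kb had 364 of 391 reads methylated, 93.1% (90.1 to 95.2), and the last 2.5 kb 93 of 123, 75.6% (67.3 to 82.3). Its highest 500 bp bin, chr12:110765000-110765499, had 40 of 40 reads methylated, and its lowest of at least 20 reads, chr12:110767500-110767999, had 14 of 21.

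Along the H19 region the low point lay in the second of 5 parts. These 500 bp parts had levels of 75.3% (64.4 to 83.8), 46.4% (29.5 to 64.2), 80% (62.7 to 90.5), 96.0% (80.5 to 99.3) and 82.4% (59.0 to 93.8). The low part, chr7:149766500-149766999, had 13 of 28 reads methylated over 9 CpGs, and the highest, chr7:149767500-149767999, 24 of 25 over 14 CpGs. The first 1.25 kb of the H19 region had a level of 67.2% (58.3 to 75.1) and the last 1.25 kb 91.2% (81.1 to 96.2). Outside the region, the bin chr7:149763500-149763999, 2.5 kb before its start, had 20 of 45 reads methylated over 19 CpGs, 44.4% (30.9 to 58.8).

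The Rasgrf1 region had its lowest level well inside the window. Its 5 parts of 2.2 kb had levels of 69.4% (61.5 to 76.3), 33.3% (23.4 to 45.1), 66.1% (53.4 to 76.9), 52.4% (37.7 to 66.6) and 100% (67.6 to 100), the last from 8 reads. The lowest 500 bp bin of at least 20 reads, chr9:89776500-89776999, had 4 of 24 reads methylated over 9 CpGs, 16.7% (6.68 to 35.9). The highest such bin was the first, chr9:89773000-89773499, with 22 of 28 (78.6%, 60.5 to 89.8). In the flank before, the bin chr9:89763000-89763499 had 18 of 37, 48.6% (33.4 to 64.1). Of its 22 bins only 4 held 20 reads or more. The widest stretch without a listed CpG was 975 bp, from 89782358 to 89783334, and none was listed in the last 666 bp of the window. In the H19 and Meg3 regions the widest such stretches were 230 and 403 bp.

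**Figure D3:**
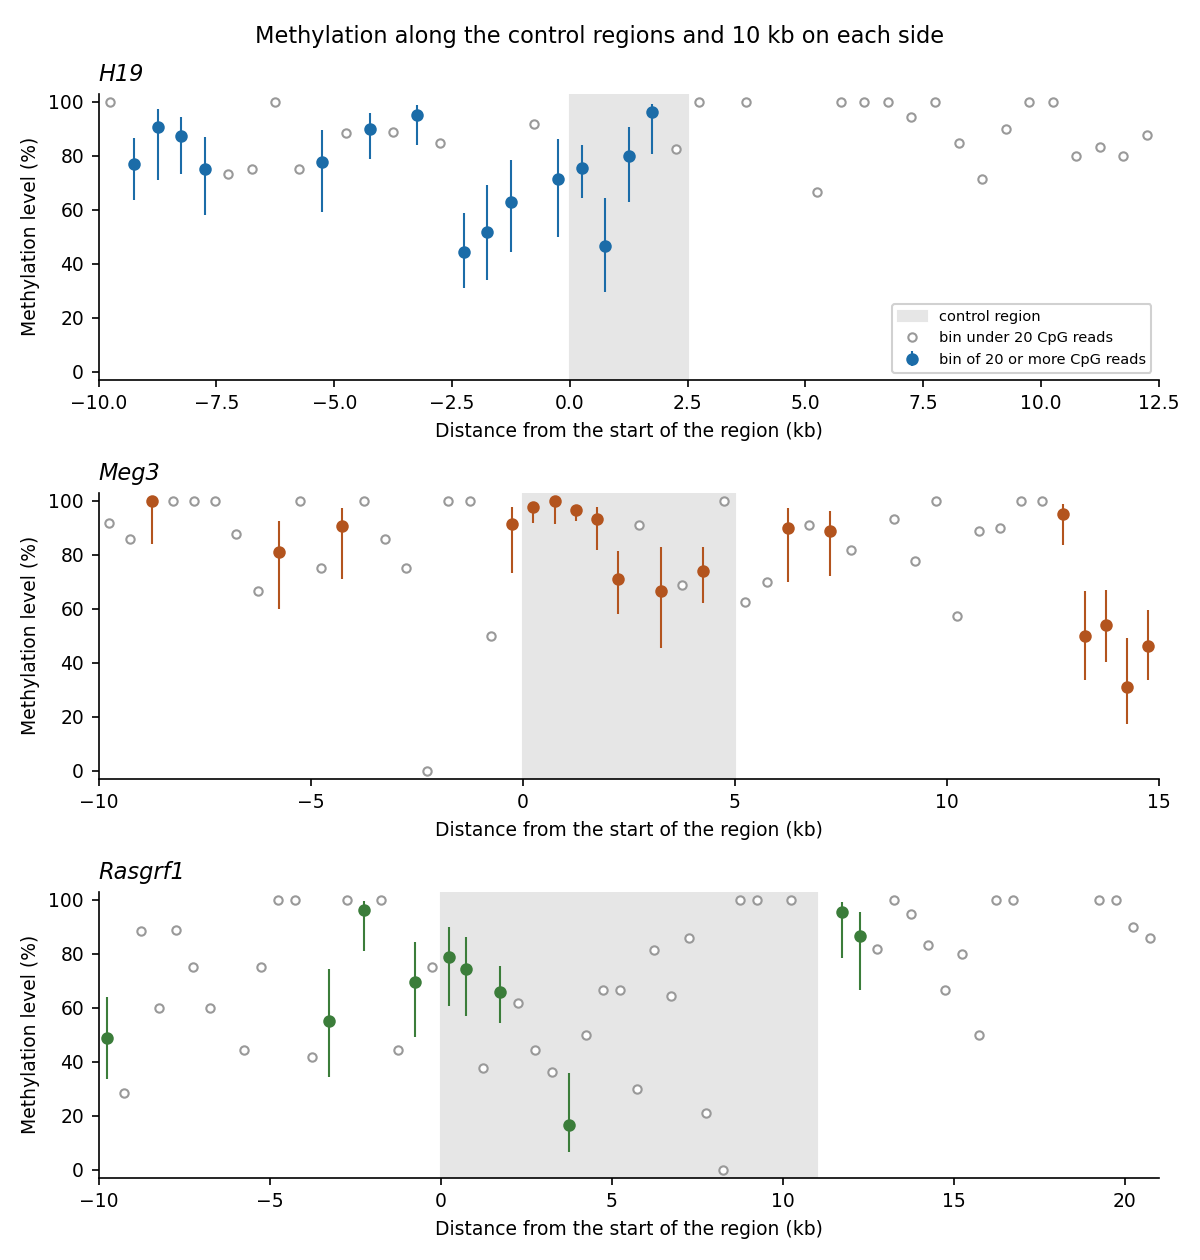
Methylation level (%) in 500 bp bins against the distance from the start of each control region (kb), with 10 kb on each side; the grey band is the region, filled points are bins of 20 or more CpG reads with 95% Wilson intervals and open points are bins with fewer. The first part of the Meg3 region sits near the top of the scale, the lowest filled bin inside the Rasgrf1 region is at 16.7%, and the last bins after Meg3 drop to between 31.0% and 54.0%.

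Single CpGs also differed between the loci. The 3 most covered CpGs of the Meg3 region, at 110764946, 110765602 and 110765798, had 10 reads each, all methylated. The most covered CpG of the H19 region, at 149767135, had 4 of 7 reads methylated, and those at 149766284 and 149766288, from a group of 5 CpGs with 6 reads, had 4 of 6 each. In the Rasgrf1 region the CpG at 89773346 had 8 of 8 reads methylated, that at 89779083 had 6 of 8 and that at 89773568 had 4 of 7. Of the 11 CpGs with at least 5 reads in the Rasgrf1 region, 4 had a level under 50%. They were 89776488 and 89780724 (2 of 6 reads each), 89776587 (1 of 5) and 89778971 (2 of 5). The Meg3 region had 2 of 48, at 110768609 and 110768757 with 2 of 5 reads each, both in its last 1 kb. H19 had none among 11. The share of autosomal CpGs under 50% was not counted, so these are given as a list only.

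CpGs with at least 5 reads were called high over 80% and low under 20%. Of all such CpGs on the autosomes outside the regions, 54.9% were high, 19.3% were low and 25.8% lay between. Of the 48 such CpGs in the Meg3 region 41 were high (85.4%) and none low, whereas autosomal CpGs of the same local number and the same number of reads were high in 36.5% and low in 40.7% of cases. In the H19 region 2 of 11 were high and 9 lay between, against 54.2% high at the same local number and reads. In the Rasgrf1 region 4 of 11 were high and 7 lay between, against 66.8% high. None of the 11 CpGs in either region was low. At the same local number and reads 18.0% would be low at H19 (1.98 CpGs) and 7.07% at Rasgrf1 (0.777 CpGs). No Rasgrf1 CpG with a local number of 10 or more had at least 5 reads. Its CpGs from 89774498 to 89774538, which had no methylated read, are thus not among these calls.

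At H19 and Rasgrf1 most CpGs with at least 3 reads carried both kinds of read. Of all listed CpGs, many with 1 or 2 reads, 21 of 60 at H19 and 43 of 123 at Rasgrf1 did. Among CpGs with at least 3 reads on the autosomes, 34.0% had both methylated and unmethylated reads, 53.7% had methylated reads only and 12.3% unmethylated reads only. In the H19 region 20 of 30 did (66.7%), where autosomal CpGs of the same local number and reads gave 32.6%, and none of the 30 had unmethylated reads only (against 18.0%). In the Rasgrf1 region 36 of 58 did (62.1%, against 27.9%), and 9 had unmethylated reads only (15.5%, against 28.6%). In the Meg3 region 30 of 81 did (37.0%, against 34.0%), and 51 had methylated reads only (63.0%, against 37.4%). In the flanks 48.7% of such CpGs carried both kinds of read at H19, 54.3% at Meg3 and 55.2% at Rasgrf1. Over all listed CpGs, those with both kinds of read held 35 of the 43 unmethylated reads at H19 and 68 of the 131 at Rasgrf1. The table does not link the reads of one molecule, so how methylated and unmethylated CpGs fall on the same molecules could not be measured.

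The placed promoters near Meg3, whose CpGs are also part of the profile, differed in level. At the Gm34081 start that overlaps the beginning of the Meg3 control region, 25 of 26 reads over 6 CpGs were methylated, 96.2% (81.1 to 99.3). From its 5′ end the CpGs had 2 of 2, 3 of 4, 4 of 4, 4 of 4, 6 of 6 and 6 of 6 reads methylated, and the last pair lies just before the window. The Meg3 start sequence, which begins 9456 bp after the end of the region, had 27 of 49 reads methylated over 12 listed CpGs. At 55.1% (41.3 to 68.1), it had an interval apart from that of the control region. Its first 4 CpGs, counted from the 5′ end, had 3 of 6, 6 of 7, 5 of 7 and 3 of 4 reads methylated. The next 5 had 1 of 4, 0 of 2, 1 of 3, 1 of 3 and 1 of 3. Of the 12 listed CpGs at this start, 10 carried both kinds of read. The Gm34081 starts near it had 14 of 29 (48.3%, 31.4 to 65.6) and 15 of 30 reads methylated (50%, 33.2 to 66.8). The 4 bins of 500 bp from 110777501 to 110779500, which hold these starts, had levels of 50% (33.6 to 66.4), 54.0% (40.4 to 67.0), 31.0% (17.3 to 49.2) and 46.3% (33.7 to 59.4).

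The Rasgrf1 start gave a contrast within the same library. Its sequence was placed at chr9:89804363-89804662, beginning 20363 bp after the end of the control region, at 20 of 26 CpGs (next best 6). There 2 of 107 reads were methylated, 1.87% (0.514 to 6.56), and 18 of the 20 listed CpGs had unmethylated reads only. At this locus the level was thus 59.7% in the control region and 89.1% in the next 10 kb. It was 29.1% in the 10 kb after that and 1.87% at the start of the gene. The sequences were also searched for TGCCGC and its reverse complement GCGGCA, the short motif that the zinc finger protein ZFP57 reads when methylated to protect imprints in the embryo. It occurred once in the placed promoter sequences, as GCGGCA at base 61 of the Meg3 start. Its CpG had 5 of 7 reads methylated. The control regions were not searched, apart from the part that the Gm34081 start covers. Of 32851 RefSeq promoters of the same length 11.6% hold this motif on either strand.

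**Figure D4:**
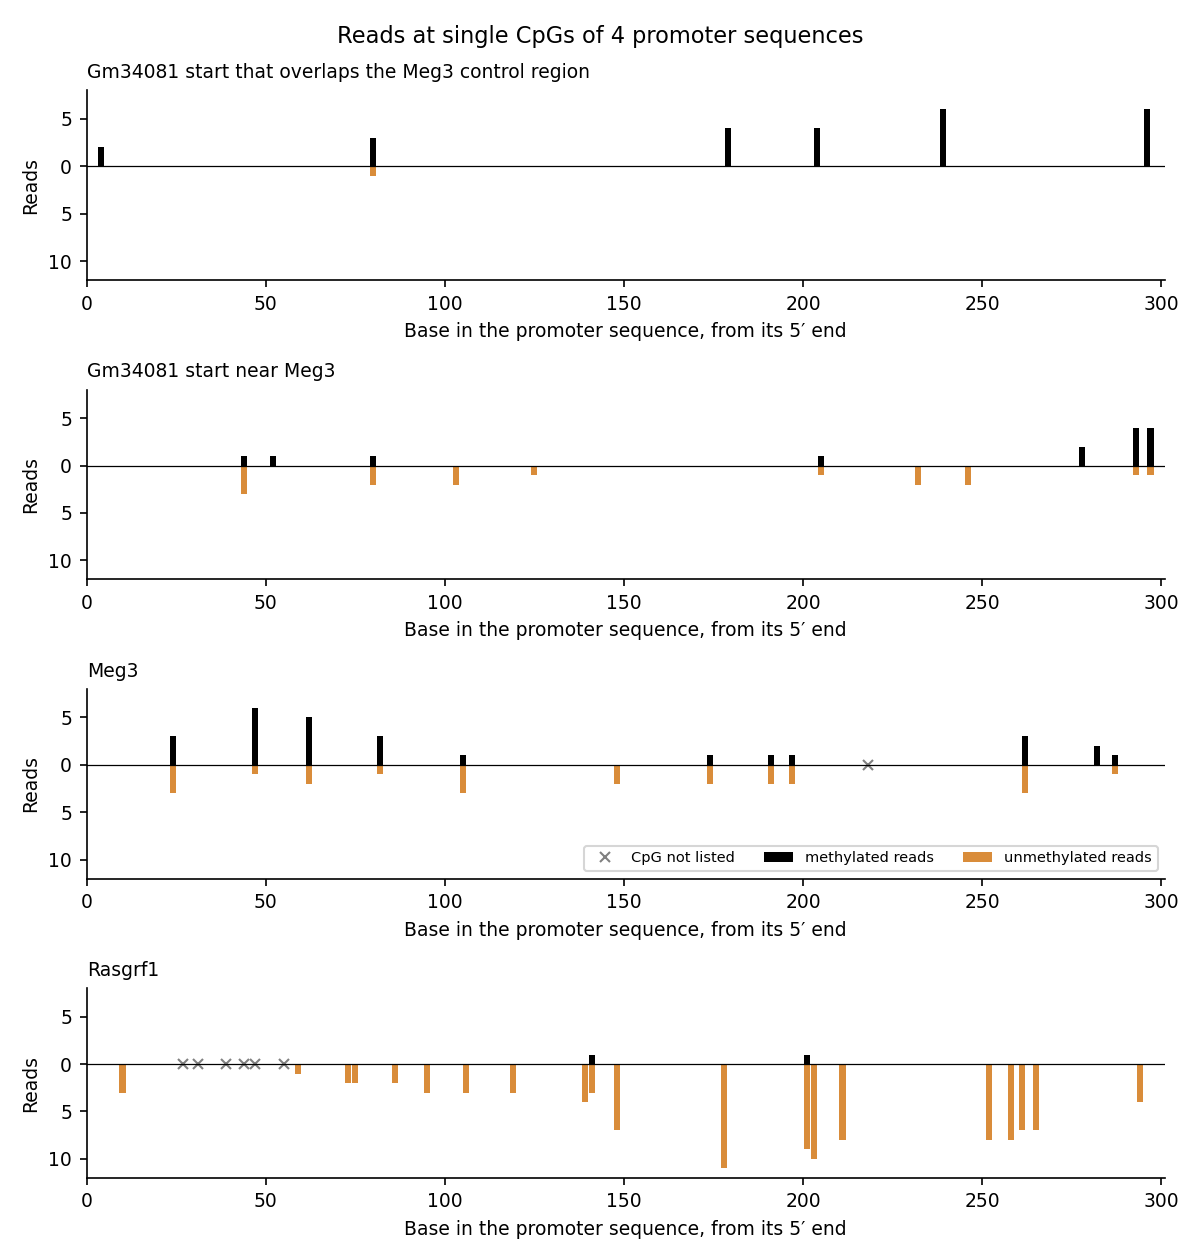
Reads at single CpGs of 4 placed promoter sequences, against the base in the sequence from its 5′ end; black bars above the line count methylated reads, orange bars below it unmethylated reads, and crosses are CpGs that are not listed. The Gm34081 start that overlaps the beginning of the Meg3 control region has 1 unmethylated read of 26, the Meg3 start is mixed at 10 of 12 CpGs, and the Rasgrf1 start has 2 methylated reads of 107.

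The number of reads per listed CpG was taken as a measure of the DNA recovered in nucleosomes, and here too Meg3 differed from the other regions. CpGs without reads are left out, which raises the mean in thinly covered DNA. The Meg3 region had 4.28 ± 2.45 reads per listed CpG (SD over 120 CpGs), against 2.64 ± 1.69 in the flank before (76 CpGs) and 2.98 ± 1.94 in the flank after (124 CpGs). Autosomal CpGs of the same local number, each of up to 18 reads, averaged 3.99, a ratio of 1.07 (0.983 to 1.17, Poisson interval for counting error only). With no limit on reads this ratio was 0.917. The H19 region had 2.88 ± 1.63 reads (SD over 60 CpGs) and a ratio of 0.799 (0.685 to 0.928). The Rasgrf1 region had 2.64 ± 1.58 reads (SD over 123 CpGs) and a ratio of 0.757 (0.677 to 0.844). The flanks of H19 averaged 3.17 and 2.89 reads and those of Rasgrf1 2.92 and 2.63. These flank means all lay inside the Poisson intervals of their regions, 2.47 to 3.35 at H19 and 2.36 to 2.95 at Rasgrf1.

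Coverage was uneven within the Meg3 region. The second of its 1 kb parts, with a level of 95.8%, had 5.94 ± 2.76 reads per CpG (36 CpGs), and the part after it, with a level of 74.2% and the densest CpGs, 2.2 ± 0.847 (30 CpGs). The 57 CpGs of Meg3 whose surroundings within 100 bp held at least 10 reads and were over 80% methylated averaged 5.67 reads, where autosomal CpGs of the same local number chosen in the same way averaged 3.65. The 22 such CpGs of H19 averaged 2.50 reads against 3.63, and the 19 of Rasgrf1 3.63 against 3.78. In surroundings between 20% and 80%, the 30 CpGs of H19 had 3.40 reads against 4.07, the 44 of Meg3 3.2 against 4.37 and the 36 of Rasgrf1 3.33 against 4.30. How well each sequence can be aligned was not tested, and coverage can differ with it.

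**Figure D5:**
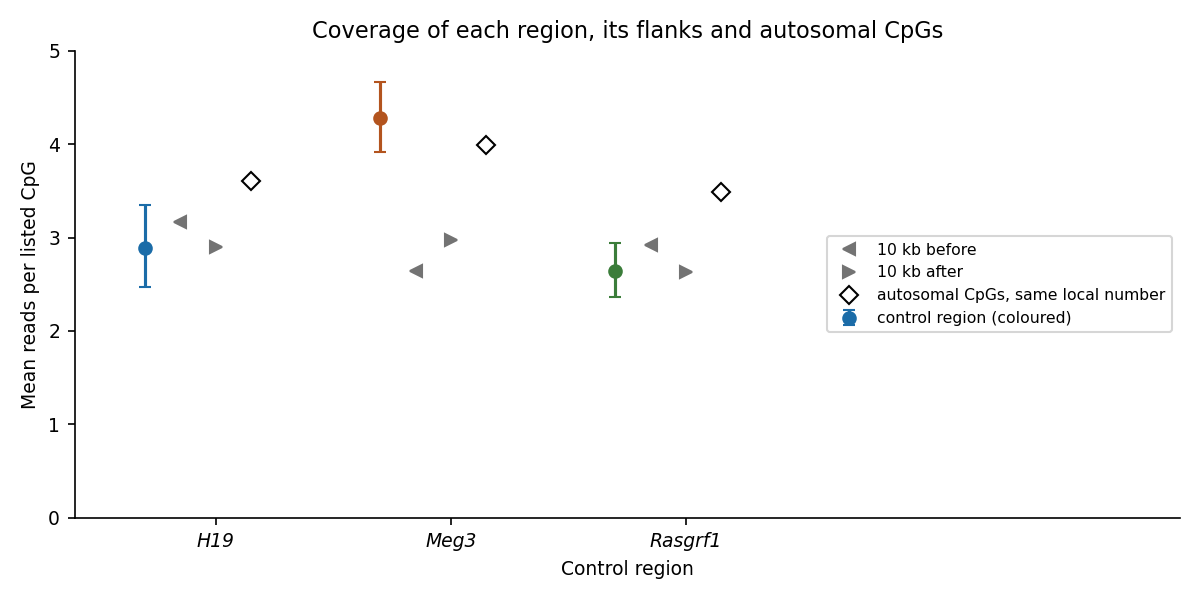
Mean reads per listed CpG in each control region (bars are 95% Poisson intervals), in the 10 kb before and after it, and at autosomal CpGs of the same local CpG number, for CpGs of up to 18 reads. Meg3 has 4.28 reads, above both of its flanks, while H19 (2.88) and Rasgrf1 (2.64) lie below the autosomal CpGs of their local number.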

How the data were processed

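Methylation was read in 1 bisulfite library of nucleosome-associated sperm DNA; 20 further samples were not used here. The deposited table lists raw counts, per the file headers all reads and methylated reads at a CpG. The submitters' processing notes name Bowtie and mm9. Trimming, handling of duplicates and bisulfite conversion are not stated there. The table holds 60995624 CpG reads, with a median of 3 per listed CpG, and does not say whether positions start at 0 or 1. Levels are summed methylated over summed total reads. Bins under 20 reads were not read. Named were the highest and lowest bin of each region, flank bins under 50%, the 3 most covered CpGs and CpGs of at least 5 reads under 50%. The 5 parts of each region, its left and right sides, the share of mixed CpGs and the average without CpGs above 18 reads were chosen after seeing the values. Members and lists were chosen with earlier results of these data known. A promoter was placed where at least 5 and 80% of its CpGs (75% for Meg3 and Rasgrf1) fell on listed positions, with no other listed CpG inside, and the next best place had at most 50% as many. Alternatives covered read minimums, flank lengths, local windows and limits on reads. Scripts ran in Python (3.11.15) with numpy (2.4.6), pandas (2.3.3), scipy (1.17.1) and matplotlib (3.10.9). The pooled level, the level at the same local number and the coverage ratio were tested on simulated data, in windows longer than these regions. The placing of promoters, the bins, the calls and the share of mixed CpGs were not.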

Additional observations from a re-analysis of the deposited data

How the results depend on the processing

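No paired analysis was possible because only 1 library was used. Among 55 values under other settings, 31 lay inside the interval of the reported value, 23 lay outside it and 1, of a difference whose interval did not include 0, reversed. The Meg3 coverage ratio of 1.07, whose interval (0.983 to 1.17) includes 1, also went below 1, to the values of 0.917 and 0.859 given here; the cause of these changes was not tested. The average without CpGs above 18 reads was added after seeing the data. The Rasgrf1 difference from its flanks, -15.4 points, reversed to 1.02 with 20 kb on each side, and was -7.65 from the flank before alone and -29.4 from the flank after alone. The H19 difference of -6.04 was -15.8 from the flank after alone and -13.8 with CpGs of at least 5 reads. The Meg3 difference of 12.9 was 4.05 with 5 kb on each side, and 0.353 and 19.8 from the flank before and after alone. The Meg3 level of 88.9% became 93.3% and 91.9% (pooled and mean over CpGs of at least 5 reads) and 100% (at least 10 reads, 3 CpGs); H19 and Rasgrf1 have no CpG of 10 reads. Against autosomal CpGs of the same local number, counted within 250 bp, the differences were 21.7 at H19 and 49.5 at Meg3. Meg3 gave 51.9 with at least 5 reads, 34.1 with CpGs as weights and 37.5 without CpGs above 18 reads, and Rasgrf1 -10.4 with CpGs as weights. With no limit on reads the coverage ratios were 0.617 (H19), 0.917 (Meg3) and 0.638 (Rasgrf1). Against autosomal CpGs in unmethylated surroundings, which needed 10 reads, they were 0.634, 0.859 and 0.478, and for Rasgrf1 0.535 against methylated surroundings. Depth limits single CpGs most, since 11 of 60 CpGs at H19 and 11 of 123 at Rasgrf1 had 5 or more reads.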
